A study of Mus musculus with 6 samples.

Results

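The 10 genes described here form the core of the hypoxia-inducible factor (HIF) pathway: the alpha subunits Hif1a and Epas1, their partner Arnt, the prolyl hydroxylases Egln1, Egln2 and Egln3, the ubiquitin ligase subunit Vhl, the asparaginyl hydroxylase Hif1an, and the HIF target genes Bnip3 and Vegfa. They were chosen by gene symbol, and all 10 were found, as 11 of 28361 probe sets and 10 of 22061 named genes, each represented by the brightest of its probe sets (mean of the 6 arrays). RNA was measured on Affymetrix whole-transcript arrays in 3 samples of MCT cells given TWEAK at 100 ng/mL for 6 h and in 3 samples of MCT cells given vehicle. MCT is a mouse proximal tubular epithelial line from the renal cortex of SJL mice. Both groups had rested overnight in serum-free medium, and the series names 3 independent experiments without saying how the arrays were paired.

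In oxygenated cells the EGLN enzymes hydroxylate prolines of HIF alpha subunits, the VHL protein then binds the hydroxylated subunit, and the proteasome destroys it. Hif1an blocks the recruitment of coactivators by hydroxylating an asparagine. When oxygen is short, the alpha subunit pairs with ARNT at motifs with the core ACGTG or GCGTG and raises genes of glycolysis, angiogenesis and mitophagy, and also Egln3, whose product feeds back on the pathway. In the kidney this system is known for erythropoietin control and for responses of tubular cells to low oxygen. TWEAK is a cytokine of the TNF superfamily that acts through the receptor Fn14. The labels describe no change of oxygen, and the arrays report RNA and not HIF protein, whose stability the hydroxylases control.

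After TWEAK, 3 of the 10 genes passed the test (limma, Benjamini-Hochberg adjusted p under 0.05), against 3.00% of all genes in either direction. Egln3 rose 1.63-fold (log2 difference 0.71, SE 0.08), while Hif1a fell 2.21-fold (log2 difference -1.14, SE 0.24) and Bnip3 fell 1.88-fold (log2 difference -0.91, SE 0.16; n = 3 arrays per group in limma). Vegfa, Arnt, Egln2 and Hif1an had groups that did not overlap but missed the threshold, and Egln1, Vhl and Epas1 overlapped between the groups. The 3 calls were kept without control 1, became 1, that of Egln3, without control 3, TWEAK 2 or TWEAK 3, and became 0 without control 2 or TWEAK 1. In limma without control 2, 1 member was higher and 3 were lower at an unadjusted p under 0.05, and without TWEAK 1, 3 were higher and 4 lower. Over all 22061 genes the calls moved too, to 1876, 16 and 63 without control 1, 2 and 3. They were 1, 219 and 38 without TWEAK 1, 2 and 3. Unadjusted, 1234 of all genes were higher and 2268 lower without control 2, and 1497 and 2470 without TWEAK 1. The 3 called genes are the ones whose promoters are shown first.

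RefSeq promoter windows (GRCm38.p6, 250 bases before the annotated start, 5′ to 3′ on the gene's strand) were found for 9 of the 10 genes, as 11 windows. Capitals mark the HIF core ACGTG or GCGTG on either strand, so that a match on the opposite strand reads CACGT or CACGC, and the palindrome CACGTG counts as 2 overlapping matches. The windows are those of Egln3 (chr12:54203875-54204124, minus strand), Hif1a (chr12:73907617-73907866, plus strand) and Bnip3 (chr7:138909507-138909756, minus strand), shown because these genes changed in opposite directions although Egln3 and Bnip3 are both HIF targets.
Egln3: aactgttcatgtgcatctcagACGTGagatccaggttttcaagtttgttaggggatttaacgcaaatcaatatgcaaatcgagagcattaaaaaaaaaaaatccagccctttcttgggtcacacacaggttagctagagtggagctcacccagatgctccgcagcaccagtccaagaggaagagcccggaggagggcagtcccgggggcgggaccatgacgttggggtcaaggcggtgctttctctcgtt
Hif1a: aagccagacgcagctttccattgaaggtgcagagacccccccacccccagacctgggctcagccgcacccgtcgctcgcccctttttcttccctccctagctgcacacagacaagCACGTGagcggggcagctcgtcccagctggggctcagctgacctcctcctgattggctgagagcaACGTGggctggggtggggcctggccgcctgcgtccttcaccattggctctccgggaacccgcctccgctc
Bnip3: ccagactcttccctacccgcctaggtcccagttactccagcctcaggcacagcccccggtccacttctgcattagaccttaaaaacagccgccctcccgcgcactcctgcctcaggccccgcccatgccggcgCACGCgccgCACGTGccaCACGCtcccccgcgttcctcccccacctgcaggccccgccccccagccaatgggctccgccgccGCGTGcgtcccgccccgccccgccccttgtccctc
Egln3 had 1 match, an ACGTG at 229 to 225 bases before the start. Hif1a had 3 matches, of which 2 overlap in the palindrome, and Bnip3 had 5, with its palindrome at 108 to 103 bases before the start. A core of either kind occurred in 38.6% of 32851 windows of the same length, ACGTG in 16.6% and GCGTG in 28.2%, so that a match by itself is common. Arnt, Egln1 and Egln2 also held a match in a window, and Vhl and Hif1an held none. Vegfa had 2 windows on the minus strand. The upstream one (chr17:46032378-46032627) held 0 HIF cores, and the downstream one (chr17:46025164-46025413) held 2. The downstream window lies inside the gene, past the start that follows the upstream one, so its 2 cores are not upstream of that first start. Egln2 also had 2 windows, whereas the shares over all windows count each window once. The kappa B consensus, searched on both strands, was matched in the windows of none of these genes but Vegfa, where 1 stretch fitted it on both strands, and it occurred in 7.25% of all windows. These matches are descriptions of letters and not of binding.

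The cells and arrays behind these values were checked on all genes. Array medians lay between 6.12 and 6.18 on the log2 scale, and the small number of arrays limits the precision. Of 13 markers of proximal tubule and epithelium, 9 were brighter than the median gene, with the nephron transcription factor Pax8 at a mean log2 value of 10.64 in TWEAK cells and 10.67 in control cells, whereas the epithelial adhesion genes Epcam (5.06 in TWEAK and 4.98 in control cells) and Cdh1 (5.82 in TWEAK and 5.70 in control cells) were dimmer than the median of each array. The proximal tubule genes Cubn and Slc34a1 were not brighter than the median gene either. Cubn was at 5.81 in TWEAK and 6.13 in control cells, and Slc34a1 at 6.35 in TWEAK and 6.15 in control cells. Of 6 leukocyte markers 1 was brighter than the median gene, of 6 endothelial markers 0, of 6 markers of fibroblasts or pericytes 2, and of 6 markers of distal nephron or podocytes 1. Limma called 0 of the markers in each of these lists; before adjustment, at p under 0.05, 2 tubular markers were higher and 2 lower, 1 endothelial marker was higher, and the other lists had 0. In a culture measured in bulk, fewer cells with a transcript and less of it per cell cannot be told apart. The first principal component of all genes carried 61.2% of the variance; TWEAK 1, 2 and 3 scored 20.3, 9.37 and 30.5 on it, against -3.26, -20.1 and -36.8 for control 1, 2 and 3.

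**Figure D1:**
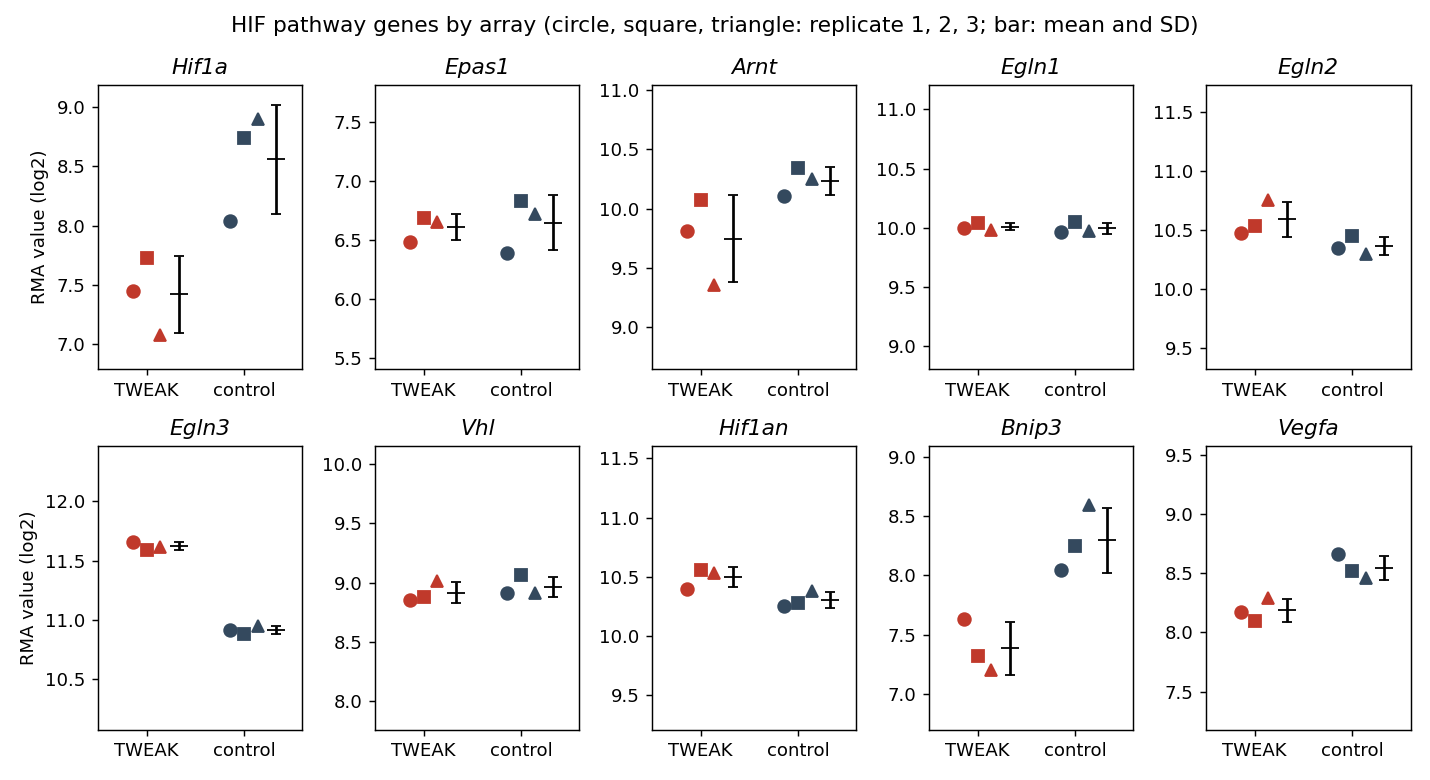
RMA values (log2, vertical axes of equal span) of the 10 HIF pathway genes on each array, TWEAK left and control right; symbols mark replicates 1, 2 and 3, and bars give the mean and SD of 3 arrays. The Egln3 arrays form 2 tight groups, those of Hif1a are spread within both groups, and those of Egln1 lie together.

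The alpha subunit gene Hif1a was at 7.45, 7.73 and 7.08 in TWEAK 1, 2 and 3, against 8.04, 8.74 and 8.90 in control 1, 2 and 3 (log2 levels). All TWEAK arrays lay below all control arrays, and control 1 was the lowest control by a wide margin. The means were 7.42 ± 0.32 in TWEAK cells and 8.56 ± 0.46 in control cells (SD, n = 3 arrays each), with an adjusted p of 0.0479 in limma. Over the 6 arrays Hif1a ran exactly opposite to the score on the first principal component of all genes. It was highest on control 3 and lowest on TWEAK 3. With that score as a covariate, a fit chosen after the data were seen, the Hif1a difference was -0.06. Every TWEAK array scored above every control array. For any gene, this fit therefore cannot separate treatment from the score. The Hif1a call was kept without control 1, at -1.40 and adjusted p = 0.0136, and lost without any other single array, at adjusted p between 0.0571 and 0.163 in limma, with differences of -0.97 to -1.29. It was also lost when every probe set was tested 1 by 1 (limma adjusted p = 0.0788), with arrays centred on their medians (0.0565) and with cyclic loess (0.0751).

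The 3 genes whose centred profiles over the 6 arrays lay nearest to Hif1a were Fbxo11, Atp13a3 and Rhoq, at root mean square differences of 0.04, 0.06 and 0.07 on the log2 scale. Their differences between TWEAK and control were -1.12, -1.12 and -1.11, a likeness to Hif1a that this choice of genes fixes.

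The second alpha subunit gene, Epas1 (HIF-2 alpha), which in the kidney is best known from interstitial and endothelial cells, was at 6.49, 6.69 and 6.65 in TWEAK 1, 2 and 3, against 6.39, 6.83 and 6.72 in control 1, 2 and 3. The groups overlapped, and replicate 1 was the lowest array in both. The difference was -0.04 (95% interval -0.33 to 0.25, limma), so a change of the size found for Hif1a lies outside the Epas1 interval. Whether the Hif1a and Epas1 differences differ from each other was not tested.

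Arnt (HIF-1 beta), the shared partner of both alpha subunits, was at 9.81, 10.07 and 9.35 in TWEAK 1, 2 and 3, against 10.11, 10.34 and 10.25 in control 1, 2 and 3. The TWEAK arrays were all lower, TWEAK 3 by far the most, but TWEAK 2 came within a few hundredths of control 1. The difference of -0.49 (SE 0.17) had an adjusted p of 0.149 in limma and was -0.29 without TWEAK 3 and 0.027 with the first principal component as a covariate.

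Among the prolyl hydroxylases, only Egln3 passed the test. Egln3 (PHD3), a HIF target in its own right, was at 11.66, 11.59 and 11.62 in TWEAK 1, 2 and 3, against 10.91, 10.88 and 10.95 in control 1, 2 and 3. The groups were far apart and each spanned under 0.1 of a log2 unit. The means were 11.62 ± 0.03 in TWEAK cells and 10.91 ± 0.03 in control cells (SD, n = 3 each), with an adjusted p of 0.0112 in limma and rank 24 by p among all genes. The difference lay between 0.67 and 0.75 in all 15 alternatives and was 0.73 with the first principal component as a covariate. The Egln3 call was lost without control 2 (limma adjusted p = 0.0859) and without TWEAK 1 (0.0684), at differences of 0.69 each, and with the principal component as a covariate, where 0 genes were called in all and, unadjusted, 463 were higher and 715 lower at p under 0.05. In the authors' deposited table Egln3 had a ratio of 1.63 and a false discovery rate of 0.0205, while Hif1a and the Bnip3 probe sets had rates between 0.0569 and 0.0788.

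Egln3 was the member whose nearest neighbours were looked up after its values had been seen. Foxp4, Loxl4 and Mrm1 lay nearest, at root mean square differences of 0.06, 0.06 and 0.07 over 6 arrays, with differences of 0.67, 0.61 and 0.74 that this choice fixes likewise.

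Egln1 (PHD2), the main oxygen sensor of most cells, was at 10.00, 10.04 and 9.99 in TWEAK 1, 2 and 3, against 9.97, 10.05 and 9.97 in control 1, 2 and 3. The groups overlapped almost fully. The difference was 0.01, with a 95% interval of -0.16 to 0.19 in limma. Egln2 (PHD1), which is largely nuclear, was at 10.48, 10.54 and 10.75 in TWEAK 1, 2 and 3, against 10.35, 10.45 and 10.30 in control 1, 2 and 3. TWEAK arrays were all higher by a narrow gap, and the difference of 0.23 (SE 0.10) did not pass (limma adjusted p = 0.238). The 95% intervals of Egln3 (0.54 to 0.88) and Egln1 do not overlap, while a difference between their changes was not tested.

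Vhl, the substrate receptor that binds hydroxylated HIF alpha, was at 8.85, 8.88 and 9.02 in TWEAK 1, 2 and 3, against 8.92, 9.06 and 8.91 in control 1, 2 and 3. The groups overlapped, with a difference of -0.05 and a 95% interval of -0.25 to 0.16 in limma. Hif1an (FIH) was at 10.40, 10.56 and 10.53 in TWEAK 1, 2 and 3, against 10.25, 10.28 and 10.38 in control 1, 2 and 3. All TWEAK arrays of Hif1an were higher, but TWEAK 1 stood just above control 3, and the difference of 0.19 (SE 0.09) did not pass (limma adjusted p = 0.244).

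**Figure D2:**
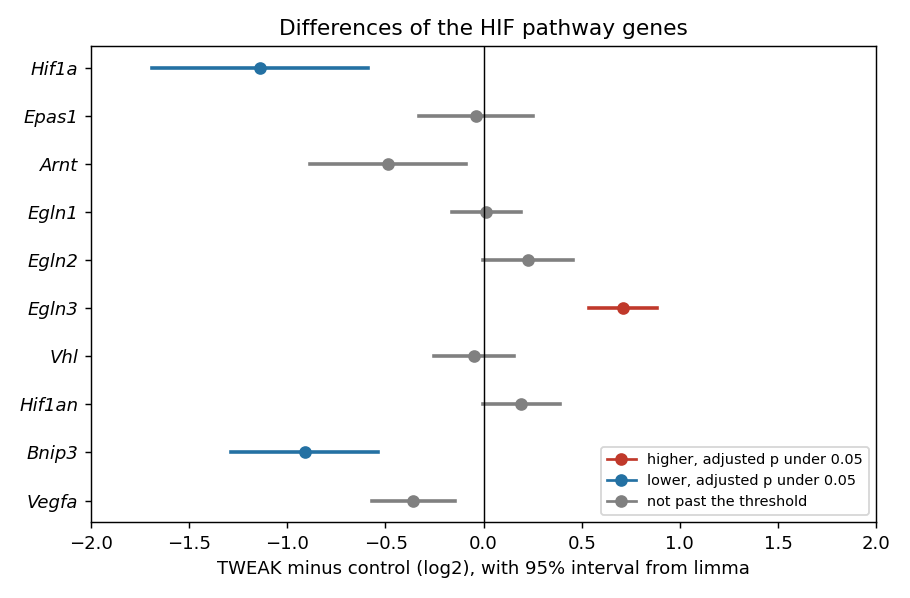
Differences (TWEAK minus control, log2) of the 10 HIF pathway genes with 95% intervals from limma on 3 arrays per group. Egln3 lies at 0.71, Hif1a at -1.14 and Bnip3 at -0.91, and the intervals of Epas1, Egln1 and Vhl are centred near 0.

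The target gene Bnip3, whose product sits in the outer mitochondrial membrane and serves as a mitophagy receptor, was at 7.64, 7.32 and 7.20 in TWEAK 1, 2 and 3, against 8.04, 8.25 and 8.59 in control 1, 2 and 3. All TWEAK arrays were lower, and TWEAK 1 and control 1 stood closest to the other group. The means were 7.38 ± 0.22 in TWEAK cells and 8.30 ± 0.28 in control cells (SD, n = 3 each), with an adjusted p of 0.0368 in limma. A second probe set with the same gene symbol and accession was at 6.40, 6.38 and 6.30 in TWEAK 1, 2 and 3, against 6.89, 7.14 and 7.34 in control 1, 2 and 3, a difference of -0.76 (SE 0.12) with no overlap. Which loci the 2 probe sets cover was not looked up, so the Bnip3 value is uncertain where probes match copies of the gene. The Bnip3 call was kept without control 1 (limma adjusted p = 0.0168) and lost without any other single array, at adjusted p between 0.0671 and 0.132 and differences of -0.76 to -1.04. It was also lost with every probe set tested 1 by 1 (limma adjusted p = 0.0626) and with cyclic loess (0.0588). With the first principal component as a covariate the difference was -0.38.

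Vegfa, which encodes the angiogenic factor VEGF-A, was at 8.17, 8.10 and 8.29 in TWEAK 1, 2 and 3, against 8.66, 8.52 and 8.46 in control 1, 2 and 3. All TWEAK arrays were lower, and the nearest pair was TWEAK 3 and control 3. The means were 8.19 ± 0.10 in TWEAK cells and 8.55 ± 0.10 in control cells (SD, n = 3 each), and the difference of -0.36 (SE 0.09) missed the threshold at an adjusted p of 0.0733 in limma. Among the control arrays Vegfa was highest on control 1, where Hif1a and Bnip3 were lowest. Its difference was -0.63 with the first principal component as a covariate and -0.30 to -0.41 with each array left out in turn.

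**Figure D3:**
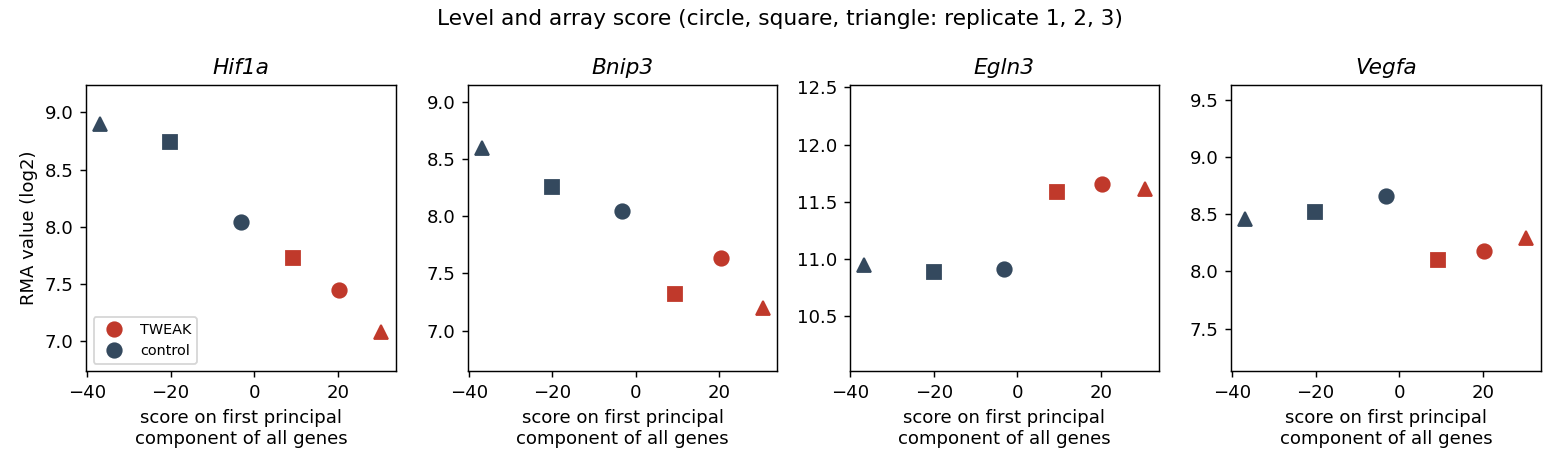
RMA values (log2) of Hif1a, Bnip3, Egln3 and Vegfa against each array's score on the first principal component of all genes; red symbols are TWEAK and dark symbols control arrays, and shapes mark replicates. Hif1a declines step by step along the score within both groups, whereas Egln3 stays near 10.91 in control and 11.62 in TWEAK arrays.

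Counted together, 3 members had all TWEAK arrays above all control arrays and 4 had all below, against 12.9% and 13.5% of all genes (26.4% in either direction). Before adjustment, 1 member was higher and 4 were lower at p under 0.05, against 8.15% and 13.1% of all genes (21.3% in either direction). The median difference of the 10 members was -0.04, beside 0.03 over all genes. The control values of the 10 lay between mean log2 levels of 6.65 and 10.91, all brighter than the median gene. The shares over all genes include the dimmer genes, which passed less often. When only the 11030 genes brighter than the median gene were tested, limma called 377 higher and 643 lower. Unadjusted, 1237 of these brighter genes were higher and 2304 lower at p under 0.05. The same limit holds for the lists below, in which most genes were brighter than the median gene.

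Partners of the HIF subunits were next examined. Of 13 genes of the VHL ligase and of HIF stability, limma called 0, and unadjusted, 0 were higher and 4 lower at p under 0.05, against 8.15% and 13.1% of all genes. The 4 were the chaperone Hsp90aa1, at -1.11 (SE 0.24, limma adjusted p = 0.0505), the deubiquitinase Usp33, at -0.72 (SE 0.18), and 2 parts of the VHL ligase, the scaffold Cul2, at -0.71 (SE 0.20), and the adaptor Eloc (elongin C), at -0.75 (SE 0.21). The median of this list was -0.01, and 4 members were called lower without control 1, as were 1412 of all 22061 genes. Among 9 dimer partners and coactivators limma also called 0, and unadjusted, 1 was higher and 4 lower at p under 0.05, beside the same shares of all genes, with a median of -0.22; without control 1, 1 was called lower. Smallest in p were the coactivator Ncoa1, at -0.63 (SE 0.15), Cited2, which competes with HIF for p300 and CBP, at 0.27 (SE 0.08), and the acetyltransferases Ep300 and Crebbp, at -0.51 (SE 0.17) and -0.36 (SE 0.14).

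Known HIF targets were called in both directions. The 31 targets taken here lie outside the list of glycolysis enzymes and glucose entry below, but include regulators of glycolysis. Egln1, Egln3, Bnip3 and Vegfa are among them. Of the 31, 4 rose and 1 fell, against 1.28% of all genes called higher and 1.71% called lower, and the median was -0.14. Besides Egln3, the collagen prolyl 4-hydroxylase subunit P4ha2 rose by 0.72 (SE 0.12) and the glycolytic regulator Pfkfb3 by 0.54 (SE 0.10), with limma's adjusted p at 0.0335 and 0.0396. Bnip3 was the 1 that fell. Before adjustment, 7 targets were higher and 11 lower at p under 0.05, against 8.15% and 13.1% of all genes. The carbonic anhydrase Car9 and erythropoietin (Epo), 2 of the HIF targets used as readouts of hypoxia, were dim. Their mean log2 values were 5.27 and 4.03 in TWEAK cells and 5.29 and 4.17 in control cells. Of the 31 targets, 24 were brighter than the median gene. Without TWEAK 1 or control 2, limma called 0 of these 31 targets, and 1 and 16 of all genes. Unadjusted, at p under 0.05, 7 targets were higher and 9 lower without TWEAK 1, and 6 higher and 8 lower without control 2. Over all 22061 genes, 1497 were higher and 2470 lower without TWEAK 1, and 1234 and 2268 without control 2. The 5 calls among the targets became 1 without control 3 or TWEAK 3, 2 without TWEAK 2 and 9 without control 1. Calls over all genes were 63 without control 3, 38 without TWEAK 3, 219 without TWEAK 2 and 1876 without control 1.

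In glycolysis and glucose entry 1 of 19 genes rose and 1 fell, against 1.28% of all genes called higher and 1.71% called lower. The enolase isoform Eno2 was at 9.31, 8.99 and 9.06 in TWEAK 1, 2 and 3, against 8.19, 7.62 and 7.71 in control 1, 2 and 3, and rose 2.43-fold (limma adjusted p = 0.0199). The phosphofructokinase isoform Pfkm was at 9.83, 9.91 and 9.84 in TWEAK 1, 2 and 3, against 10.28, 10.34 and 10.33 in control 1, 2 and 3, and fell 1.37-fold (limma adjusted p = 0.0346). The groups did not overlap for either gene. The median of the list was 0.03, and the glucose transporter Slc2a1, at -0.01 (SE 0.11), and lactate dehydrogenase Ldha, at 0.03 (SE 0.09), did not pass. Without control 2, control 3, TWEAK 1 or TWEAK 3 limma called 0 of the 19, while unadjusted, 1 was higher and 2 lower at p under 0.05 each time. Over all 22061 genes those fits called 16, 63, 1 and 38. Unadjusted, 1234, 1248, 1497 and 1311 of all genes were higher and 2268, 2143, 2470 and 2323 lower. Without TWEAK 2, 1 was called.

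Of 10 VEGF ligands and receptors, Vegfa included, limma called 0, and unadjusted, 2 were higher and 2 lower at p under 0.05, against 8.15% and 13.1% of all genes. The lymphangiogenic ligand Vegfd was at -0.81 (SE 0.18, limma adjusted p = 0.0558), and the receptors Flt1 and Nrp2 were at 0.48 (SE 0.15) and 0.41 (SE 0.15). Without control 1, 1 of these 10 was called lower, as were 1412 of all genes. Of 10 mitophagy genes with Bnip3 among them, 2 fell and 0 rose, against 1.71% of all genes called lower and 1.28% called higher. Unadjusted, 1 was higher and 5 were lower at p under 0.05, against the 8.15% and 13.1% above, with a median of -0.18. The mitophagy receptor Fundc1 fell by 1.10 on the log2 scale (SE 0.21, limma adjusted p = 0.0402), and the close Bnip3 relative Bnip3l (NIX) was at -0.56 (SE 0.13, limma adjusted p = 0.0568). Limma called 0 of these 10 mitophagy genes when any array other than control 1 was left out, while unadjusted, 1 was higher and 4 or 5 lower at p under 0.05. Over all 22061 genes those fits called between 1 and 219. Unadjusted, between 1234 and 1968 of all genes were higher and between 2143 and 2819 lower.

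**Figure D4:**
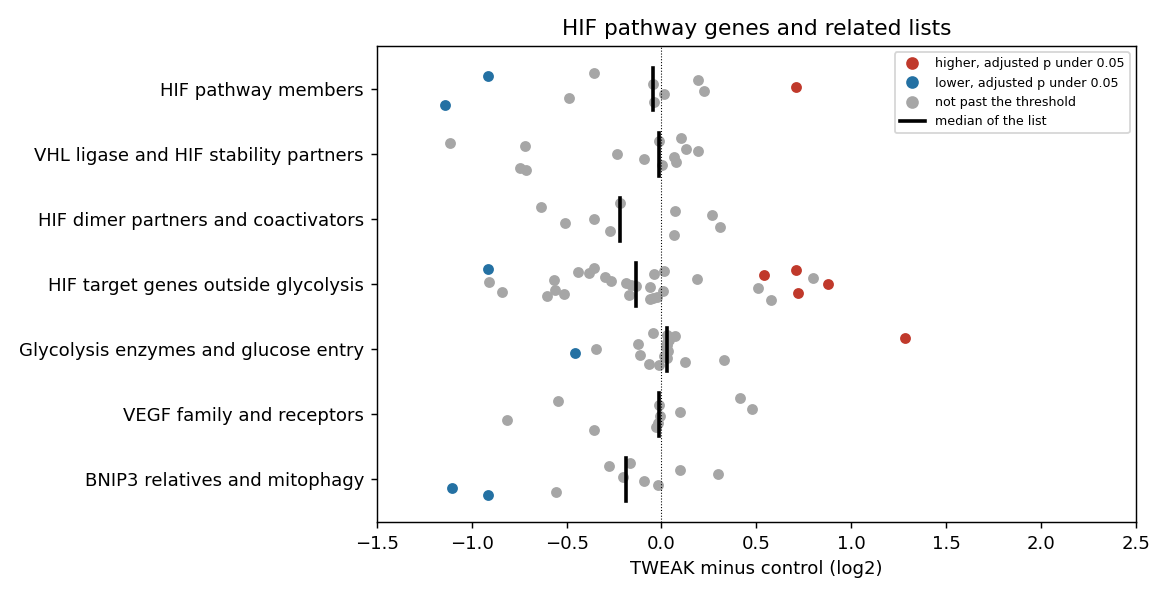
Differences (TWEAK minus control, log2) of the 10 HIF pathway genes and of 6 related gene lists; each point is a gene, coloured where limma's adjusted p was under 0.05, and black bars are list medians, from -0.22 for dimer partners to 0.03 for glycolysis. HIF targets hold points on both sides of 0, with 4 called higher and 1 called lower.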

How the data were processed

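Trizol RNA of 3 TWEAK and 3 control samples of MCT cells was labelled for whole-transcript arrays (GeneChip WT PLUS), as the labels' protocols state. The authors deposited log2 values per probe set; the submitters' processing notes name RMA and Affymetrix Expression Console, with the version and genome build not given in the sources used here. Since RMA makes array distributions alike, a change common to most transcripts is removed. The deposited table also holds the authors' ratio, p-value and false discovery rate, per the file headers; the ratio equals that of unlogged group means, and the p-values equal limma's on all probe sets (largest difference 8.17e-14 in log10).

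Gene symbols were brought up to date with RefSeq names of GRCm38.p6 (22115 probe sets by accession, 1815 by symbol, 625 by synonym, 910 unmatched), and the probe set with the highest mean stood for each of 22061 genes. TWEAK minus control was tested with limma 3.58.1 in R 4.3.3 (lmFit, eBayes), Benjamini-Hochberg adjusted over all genes, threshold 0.05. SE is limma's moderated standard error, and folds are unlogged differences of log2 means. P-values measure the spread between these arrays. In simulated data for 22061 genes, 99 of 100 genes changed by 1 were found, as were 100 of 100 changed by 2 (log2). Of the 214 calls there, 15 were false. These shares cannot be taken as the power on the measured arrays. There Hif1a, at -1.14, had a limma adjusted p of 0.0479, and Hsp90aa1, at -1.11, was not called (0.0505). Calls over all genes also ran from 1 to 1876 with each array left out. Members and lists were chosen with earlier results of these data known. All members were named; so was every called member of the other lists and otherwise up to 4 with the smallest p, apart from 1 gene that is not reported here, and Car9, Epo, Slc2a1, Ldha and the marker genes were named after their values were seen. Python 3.11.15 with pandas 2.3.3 searched the promoters, and matplotlib 3.10.9 drew the figures.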

Additional observations from a re-analysis of the deposited data

How the results depend on the processing

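The differences of Egln3, Hif1a, Bnip3, Vegfa, Egln2 and Hif1an kept their sign in all 15 alternatives. The sign turned for Arnt with the first principal component as a covariate (0.027), for Epas1 with it (0.27), for Egln1 with array weights (-0.023), and for Epas1, Egln1 and Vhl with single arrays left out, where the differences ran from -0.17 to 0.055, from -0.0035 to 0.040 and from -0.098 to 0.0035. The number of called members, 3, was 1 with a replicate block, with every probe set tested 1 by 1 and with cyclic loess (Egln3 each time), 5 with array weights (Arnt and Vegfa added, at limma adjusted p of 0.0377 and 0.0190), 0 with the principal component, and 0 to 3 with each array left out. Over all genes, 661 calls became 207 (122 higher, 85 lower) with the replicate block, 1020 among brighter genes, 107 (78 higher, 29 lower) over probe sets, 252 (183 higher, 69 lower) with cyclic loess, 3223 with array weights, 0 with the principal component, and 1 to 1876 with each array left out; centring arrays on their medians gave 325 higher and 225 lower. Calls in the lists are given in the order of replicate block, probe sets 1 by 1, cyclic loess, array weights and principal component. They were 2, 1, 2, 15 and 0 for HIF targets (0 to 9 with each array left out), 1, 1, 2, 2 and 0 for glycolysis (0 to 2), and 0, 0, 0, 6 and 0 for mitophagy (0 to 3). The VHL list had 1 call with trend and robust eBayes, 1 among brighter genes, 3 with array weights and 0 to 4 with each array left out; the dimer partners had 1 among brighter genes, 4 with array weights and 0 to 1; and the VEGF list had 1 with the block, with trend and robust eBayes and among brighter genes, 3 with array weights and 0 to 1. The array weights were 0.60, 5.60 and 0.53 for control 1, 2 and 3, and 0.94, 0.91 and 0.65 for TWEAK 1, 2 and 3. In that fit the control side therefore rested mostly on control 2. Same-numbered arrays had correlations of deviations of 0.20, 0.36 and -0.07. TWEAK 1 and TWEAK 2 each correlated best with the control of the same number, whereas TWEAK 3 correlated best with control 1, at 0.29. With 3 arrays per group these values cannot decide whether the numbers pair the arrays. With the block, Hif1a and Bnip3 had limma adjusted p of 0.0744 and 0.0759 and Egln3 0.0378. The cause of these changes was not tested, and the principal component, computed from both groups, moves with treatment.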
